A study of Homo sapiens with 12 samples.

Results

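The cornified envelope is the sheet of crosslinked protein that replaces the plasma membrane of terminally differentiating squamous cells. Cytosolic precursors such as involucrin, cystatin A and the small proline-rich (SPRR) proteins are laid down under the membrane and joined by transglutaminases. Airway epithelium does not normally build this structure, but bronchial cells can take on squamous features after injury, in smokers or in culture without retinoids. The genes described here are 10 named members of this programme, found by gene name among the 58735 genes of the deposited count table. The rule that picks them uses no measured value, but the names were chosen with earlier results of these data known. They are the scaffold precursor IVL, the protease inhibitor CSTA, the crossbridging precursors SPRR1A, SPRR1B, SPRR2A, SPRR2D and SPRR3, the envelope component CNFN, the crosslinking enzyme TGM1 and the regulator SFN. All 10 were found, and 5 of them (SFN, CSTA, IVL, TGM1 and CNFN) had enough counts to be tested, among 16702 genes tested.

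The cells were Beas-2b, an immortalised human bronchial epithelial line, and poly(A) RNA was sequenced in 12 libraries. Wild type cells and ANT1 knockout cells were each sampled in control medium and after bleomycin, which gives 4 groups of 3 libraries that the series calls biological replicates. ANT1, the product of SLC25A4, carries ATP out of the mitochondrial matrix in exchange for ADP. The knockout was made with CRISPR in clones, of a number the sources used here do not state, so that genotype and clone cannot be told apart. Bleomycin breaks DNA and was given for 2 days to bring about senescence, at a dose the labels write as 10 mg/ml, whose unit may be a slip and was not checked against another source, while controls stayed in medium.

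Libraries held 15.75 to 21.92 megacounts, so that a count of 0 in a library allows up to 0.137 to 0.190 counts per megacount (CPM), taking 3 counts as the limit. Such limits and the counting intervals below cover counting error only. The targeted gene SLC25A4 (chromosome 4, 185143241 to 185150382) averaged 19.2 CPM in wild type cells in control medium and 22 CPM after bleomycin, against 5.62 and 4.60 CPM in knockout cells (n = 3 each). It was lower in knockout cells in both media (edgeR log2 fold change -1.78, SE 0.21, adjusted p = 0.0111 in control medium, and -2.26, SE 0.22, adjusted p = 0.000904 in bleomycin). The 6 knockout libraries, at 4.09 to 6.97 CPM, did not overlap the 6 wild type libraries, at 16.1 to 27.5 CPM. In control medium the test missed the threshold when replicate 1 (adjusted p = 0.0515) or 3 (adjusted p = 0.0622) of the wild type controls was left out, or when only the groups compared were fitted (adjusted p = 0.406), and passed under the other alternatives, DESeq2 included. Replicate 2 of the knockout control stood apart, with 0.364% of its counts on the mitochondrial chromosome against 3.86% to 5.13% in the other 11 libraries. Without it no tested member gained or lost a call in any comparison, and values that moved are given beside the result.

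Several of these genes lie together on chromosome 1 in the epidermal differentiation complex, a cluster of genes for envelope precursors and S100 proteins. The stretch just upstream of IVL is shown because IVL rose with bleomycin while its SPRR neighbours stayed at or near 0 counts, and both carry the same short motif. The motif is TGANTCA, with any base at N, a looser pattern than the TGAGTCA that AP-1 (FOS and JUN dimers) binds in squamous promoters. TGANTCA reads the same on both strands by its pattern, and capitals mark it. The 250 bases before the RefSeq start of IVL (GRCh38.p14, chr1:152908296-152908545, plus strand) read as follows.
IVL upstream: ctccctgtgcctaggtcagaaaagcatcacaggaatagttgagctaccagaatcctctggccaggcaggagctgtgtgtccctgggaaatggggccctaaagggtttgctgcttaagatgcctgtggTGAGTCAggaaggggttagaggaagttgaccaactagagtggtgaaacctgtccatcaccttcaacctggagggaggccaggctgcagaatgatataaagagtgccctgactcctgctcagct

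The RefSeq table held 7 of the 10 members (IVL, SPRR1A, SPRR1B, SPRR2A, SPRR3, CNFN and SFN). TGANTCA occurred in the 250 bases before the start in 6 of these 7, all but CNFN, against 2308 of 35116 promoters, or 6.57%, in windows of the same length. The matches of the other members are shown with 20 bases on each side so that they can be compared with that of IVL.
SPRR1A (chr1:152983953-152983999, plus): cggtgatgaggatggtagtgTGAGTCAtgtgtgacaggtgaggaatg
SPRR1B (chr1:153031042-153031088, plus): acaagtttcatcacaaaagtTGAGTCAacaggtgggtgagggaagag
SPRR1B, nearer the start (chr1:153031072-153031118, plus): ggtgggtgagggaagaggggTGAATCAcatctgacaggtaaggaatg
SPRR2A (chr1:153057683-153057729, minus): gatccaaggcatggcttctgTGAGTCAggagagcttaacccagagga
SPRR3 (chr1:153001559-153001605, plus): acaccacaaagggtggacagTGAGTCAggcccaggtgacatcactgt
SFN (chr1:26862959-26863005, plus): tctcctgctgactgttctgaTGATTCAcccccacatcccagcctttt
The core letters were TGAGTCA in IVL, SPRR1A, SPRR2A and SPRR3, TGAGTCA and TGAATCA in SPRR1B, and TGATTCA in SFN. SFN thus matched only through the looser pattern, and the share of all promoters with TGAGTCA alone was not counted. They began 123 bases before the start in IVL, 108 in SPRR1A, 141 and 111 in SPRR1B, 197 in SPRR2A and 170 in both SPRR3 and SFN. A TATAAA box, searched on both strands, occurred in IVL, SPRR1A, SPRR2A and SPRR3, beginning 29 or 30 bases before the start, and in 10.7% of all promoters of the table. A match of letters is a description of the sequence and was not tested as a binding site.

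In wild type control cells the members differed widely in level. On the deposited FPKM scale, which divides by gene length and so allows genes to be compared, SFN averaged 60.6, CNFN 1.86, TGM1 0.967, CSTA 0.171 and IVL 0.107. CNFN and TGM1 overlapped in their library values there. After bleomycin the order in wild type cells was SFN at 160 FPKM, CSTA at 16.7, CNFN at 1.74, IVL at 1.60 and TGM1 at 0.782, where CNFN and IVL overlapped. CSTA thus moved from the fourth to the second place. The knockout cells had the same 2 orders, with CSTA at 0.123 FPKM in control medium and 15.1 in bleomycin, and CSTA and IVL overlapped in knockout control.

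**Figure D1:**
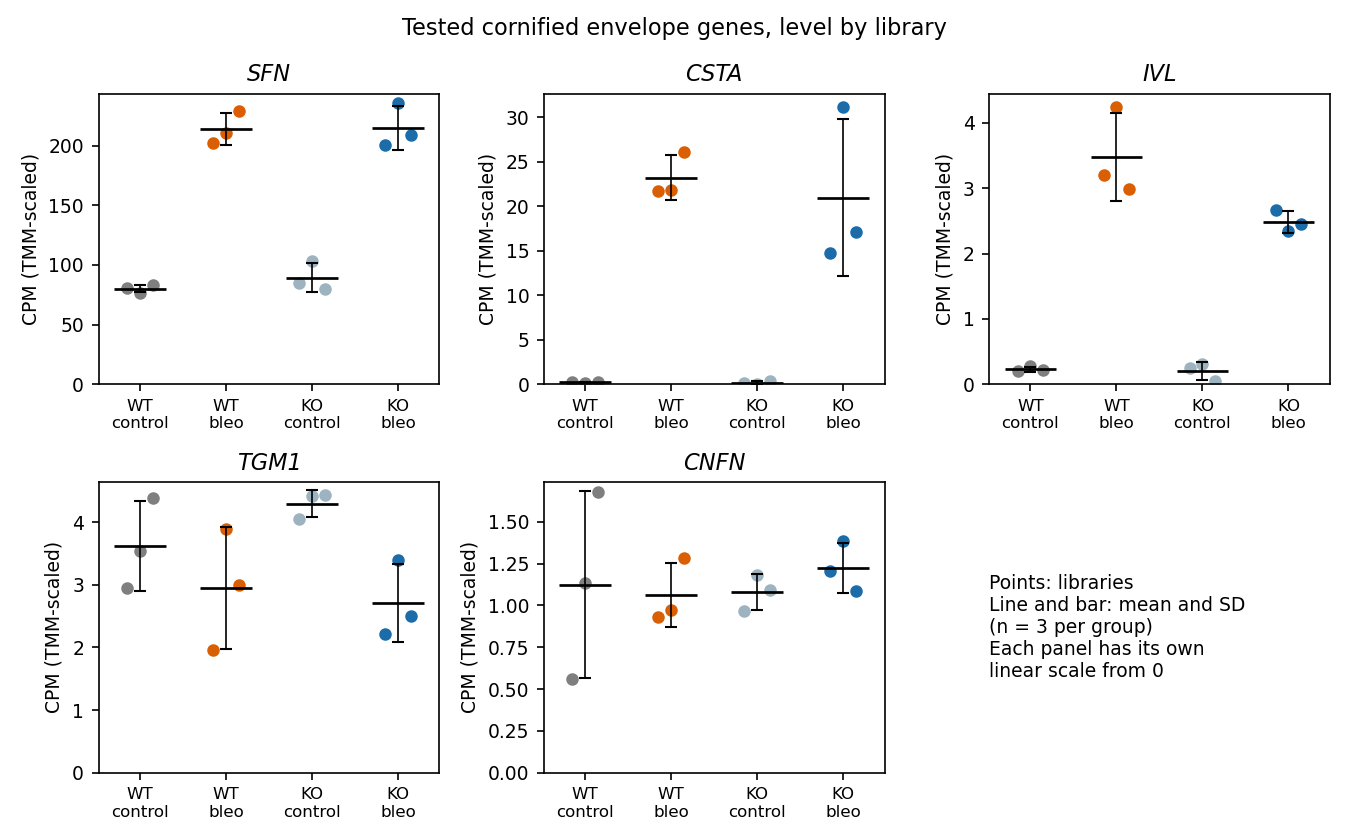
Abundance of the 5 tested members in each of the 12 libraries, in CPM on linear axes from 0 that differ between panels, with a point per library and a line and bar for the mean and SD of the 3 libraries of a group. CSTA, IVL and SFN are higher in every bleomycin library than in every control, while the CNFN groups overlap and TGM1 is lower in the treated knockout libraries than in their controls.

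The first comparison asks how wild type cells respond to a drug used to bring about senescence. CSTA, IVL and SFN rose, TGM1 and CNFN did not pass the test, and the 5 SPRR genes stayed at or near 0 counts. In total 3 of the 5 tested members were called higher and 0 lower, where 23.9% of all tested genes were called higher, 19.6% lower and 43.5% in either direction. The members' median log2 fold change was 1.41 against 0.02 over all genes tested. CSTA and IVL owe their place among the tested genes to the bleomycin libraries alone and so had to be higher there, so that count and median support nothing about the 10 genes. Of the 3 members expressed above the filter in both treatments, SFN rose and TGM1 and CNFN did not pass.

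CSTA encodes cystatin A, an inhibitor of cysteine proteases that is crosslinked into the envelope (ENSG00000121552, chromosome 3, 122325244 to 122341972). Its raw counts in replicates 1, 2 and 3 were 5, 4 and 5 in wild type control and 421, 380 and 489 in wild type bleomycin. The bleomycin libraries lay far above the controls. Each of them exceeded every control, as for 32.1% of tested genes. In CPM the level went from 0.235 ± 0.0473 to 23.2 ± 2.52 (SD, n = 3), and edgeR gave a 96.8-fold rise (log2 fold change 6.60, SE 0.43, adjusted p = 6.27e-08). The summed counts, 14 against 1290, gave a ratio of 99.8 (exact 95% counting interval 59.3 to 183). In knockout cells the counts were 3, 0 and 6 in control medium and 232, 585 and 314 in bleomycin. Again no library of the groups overlapped, as for 27.4% of tested genes in knockout cells in that direction. Replicate 2 of the knockout bleomycin group was the highest of the 12 libraries. The level went from 0.170 ± 0.164 to 21.0 ± 8.86 CPM, a 115-fold rise (6.84, SE 0.46, adjusted p = 1.09e-07, edgeR), with summed counts of 9 and 1131 and a ratio of 121 (63.4 to 265). The size in knockout cells rests on few control counts: it was 79.3-fold without knockout control replicate 2, which held 0 CSTA counts, and 212-fold without replicate 3.

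IVL encodes involucrin, a rod-shaped scaffold to which other precursors are joined (ENSG00000163207, chromosome 1, 152908545 to 152911886, beginning at the end of the upstream stretch printed above). Wild type control libraries held 4, 6 and 4 IVL counts and wild type bleomycin libraries 62, 74 and 56. Every bleomycin library exceeded every control, as for 32.1% of tested genes. The level rose 14.6-fold, from 0.231 ± 0.0367 to 3.48 ± 0.670 CPM (edgeR log2 fold change 3.86, SE 0.35, adjusted p = 1.2e-06), and the summed counts of 14 and 192 gave a ratio of 14.9 (95% interval 8.64 to 27.7). Knockout control libraries held 4, 5 and 1 counts and knockout bleomycin libraries 42, 44 and 45. The groups were again apart, as for 27.4% of tested genes in knockout cells. The rise was 12.2-fold, from 0.202 ± 0.133 to 2.48 ± 0.167 CPM (3.61, SE 0.38, adjusted p = 6.6e-06, edgeR; ratio 12.6, 6.64 to 26.9), and 16.5-fold without knockout control replicate 2. After the rise IVL was still rarer than CSTA per length, at 1.60 against 16.7 FPKM in wild type bleomycin.

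SFN encodes 14-3-3 sigma, an adaptor protein of stratified epithelia that is also a known target of p53 and restrains the cell cycle (ENSG00000175793, chromosome 1, 26863138 to 26864457). It was the only abundant member. Its counts were 1588, 1689 and 1540 in wild type control and 3916, 3668 and 4280 in wild type bleomycin, against 1407, 1654 and 1466 in untreated and 3153, 4433 and 3837 in treated knockout cells. All 6 bleomycin libraries lay above all 6 control libraries. Within a genotype, such a separation held for 32.1% of tested genes in wild type and 27.4% in knockout cells. The share over both genotypes together was not counted. SFN rose 2.66-fold in wild type cells, from 80.2 ± 3.31 to 214 ± 13.6 CPM (log2 fold change 1.41, SE 0.11, adjusted p = 2.37e-07, edgeR). In knockout cells it rose 2.40-fold, from 89.3 ± 12 to 215 ± 18.6 CPM (1.27, SE 0.11, adjusted p = 8.25e-07). The rise was 2.59-fold without knockout control replicate 2.

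TGM1 encodes the membrane-bound transglutaminase that crosslinks envelope precursors (ENSG00000092295, chromosome 14, 24249114 to 24264432, minus strand). Its counts were 58, 78 and 81 in wild type control and 38, 68 and 56 in wild type bleomycin. These groups overlapped, and the difference from 3.62 ± 0.717 to 2.95 ± 0.969 CPM did not pass (log2 fold change -0.30, SE 0.25, adjusted p = 0.37, edgeR). Knockout control libraries held 67, 71 and 81 counts and knockout bleomycin libraries 35, 64 and 46. Here every bleomycin library (2.22 to 3.40 CPM) lay below every control (4.05 to 4.43 CPM), as 23.9% of tested genes did in that comparison. The difference missed the threshold (-0.66, SE 0.26, adjusted p = 0.0527, edgeR; adjusted p = 0.0519 without knockout control replicate 2). It passed with DESeq2 (adjusted p = 0.0363), without knockout bleomycin replicate 2 (-0.86, adjusted p = 0.0352) and without wild type bleomycin replicate 1 (adjusted p = 0.033) or 2 (adjusted p = 0.0477), and the lowest and highest adjusted p among the alternatives were 0.0289 and 0.161. The crosslinking enzyme was called higher in neither genotype.

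CNFN encodes cornifelin, a small component of the envelope (ENSG00000105427, chromosome 19, 42387019 to 42390287, minus strand). Wild type libraries held 11, 25 and 31 counts before and 18, 17 and 24 after bleomycin. Knockout libraries held 16, 19 and 20 counts before and 19, 26 and 20 after it. All 4 groups overlapped. Neither the wild type difference (log2 fold change -0.07, SE 0.35, adjusted p = 0.884, edgeR) nor that in knockout cells (0.18, SE 0.35, adjusted p = 0.708) passed. With about 20 counts a library, the SE allows changes of a moderate size in either direction.

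The SPRR genes encode proline-rich crossbridging precursors and lie in a row next to IVL on chromosome 1, from SPRR1A at 152985231 to the end of SPRR2A at 153057537. SPRR1B, SPRR2A and SPRR2D had 0 counts in all 12 libraries. SPRR1A had 1 count, in wild type control replicate 1, and SPRR3 had 1 count, in wild type bleomycin replicate 3. Together the 5 genes gave 2 counts among 219.9 megacounts. A sum of 0 over the 12 libraries allows up to 0.0136 CPM, and over the 3 libraries of a group up to 0.0499 to 0.0589 CPM, so that no difference in SPRR levels was detectable at this depth. The sequences of SPRR2A and SPRR2D are in part shared: 32.7% and 19.3% of their 50-base stretches occur in another gene, and the sources used here do not state whether reads that match several genes were counted. For SPRR1A that share was 11.3% and for SPRR1B 4.38%, and the SPRR1A model counted is only 270 bases long. IVL, CSTA, TGM1, CNFN, SFN and SPRR3 shared 0 such stretches.

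The same treatment in knockout cells gave the same number: 3 of 5 tested members were called higher (CSTA, IVL and SFN) and 0 lower, against 22.5% of genes higher, 20.7% lower and 43.2% in either direction. The members' median was 1.27 and that of all genes 0.00. CSTA and IVL passed the filter in no knockout control library either, so again count and median support nothing about the members. Without knockout control replicate 2 the count was still 3 in each genotype. These are bulk libraries, so a few cells with much CSTA or IVL and many cells with little cannot be told apart.

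**Figure D2:**
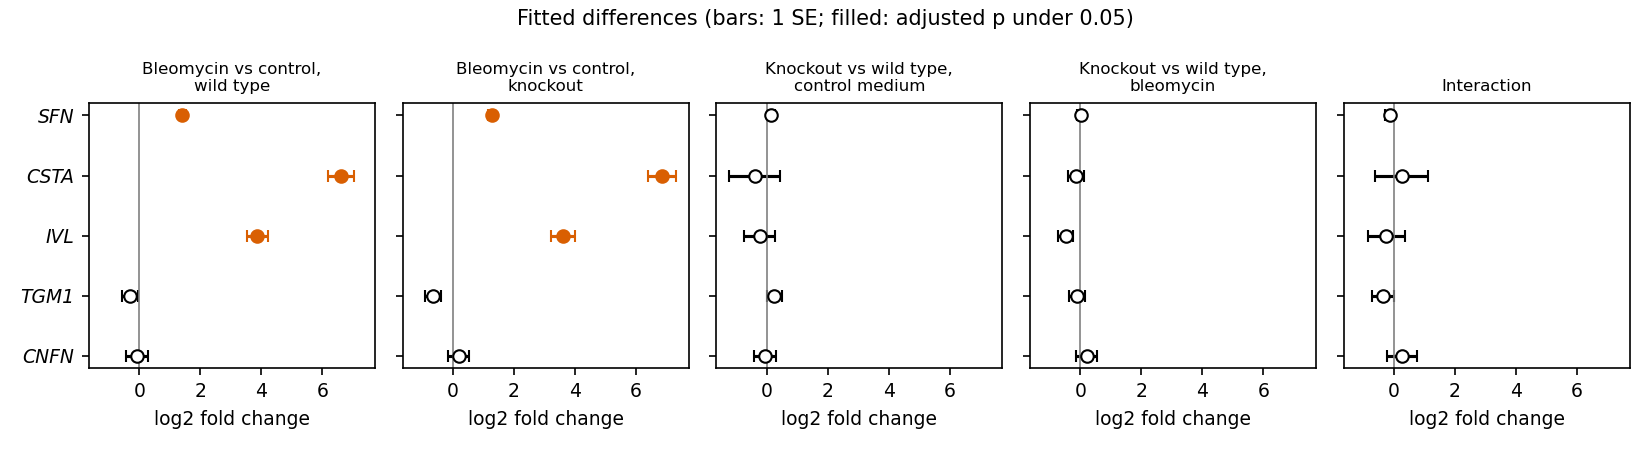
Log2 fold change (horizontal axis) of each tested member in the 5 comparisons, from edgeR on 3 libraries a group, with bars of 1 SE and filled points where the adjusted p is under 0.05. CSTA, IVL and SFN lie above 0 for bleomycin in both genotypes, and the comparisons of knockout with wild type and the interaction lie near 0, with the widest bars for CSTA in control medium and in the interaction.

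Knockout against wild type asks whether loss of ANT1 changed these genes. It did not pass for any tested member. In control medium 0 of 5 members were called, where 0.168% of genes were, and log2 fold changes were 0.15 for SFN (SE 0.11, adjusted p = 0.589, edgeR), 0.25 for TGM1 (SE 0.25), -0.05 for CNFN (SE 0.35), -0.23 for IVL (SE 0.52) and -0.39 for CSTA (SE 0.84). Without knockout control replicate 2 the CSTA value changed sign, to 0.15, and IVL was -0.67, neither called. Control counts of CSTA and IVL were 9 to 14 a group, so a genotype difference there was hardly measurable. In bleomycin CSTA and IVL held more counts, and 0 of 5 members were called, with a background of 0.0479%. SFN differed by 0.01 (SE 0.10), TGM1 by -0.11 (SE 0.26), CSTA by -0.14 (SE 0.26) and CNFN by 0.21 (SE 0.35), with adjusted p = 0.999 for each. IVL differed most, by -0.48 (SE 0.26, adjusted p = 0.842), and the 3 knockout libraries (2.34 to 2.67 CPM) lay below the 3 wild type libraries (2.99 to 4.24 CPM). A total of 9.6% of tested genes were separated in that way and direction. In both genotype comparisons 0 members passed at an unadjusted p under 0.05 and 0 with DESeq2.

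The interaction compares the bleomycin response of knockout cells with that of wild type cells. No member was called, as 0 genes of all were in that fit, with 0 members at an unadjusted p under 0.05 and 0 with DESeq2. Estimates on the log2 scale were -0.15 for SFN (SE 0.15), 0.25 for CSTA (SE 0.86), -0.26 for IVL (SE 0.61), -0.36 for TGM1 (SE 0.36) and 0.26 for CNFN (SE 0.49). The SE was smallest for SFN, the most abundant member, and largest for CSTA and IVL, whose controls held few counts. Without knockout control replicate 2 the CSTA and IVL estimates changed sign, to -0.29 and 0.18, and neither was called. The 2 bleomycin comparisons have no libraries in common, but each genotype comparison shares its groups with them.

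The surrounding epidermal differentiation complex, taken from S100A10 to S100A1 (chromosome 1, 151982915 to 153632039), holds 64 protein-coding genes. Of these, 22 had 0 counts in all libraries, 20 had 1 to 36 counts in total and 19 were tested. With bleomycin 13 of the 19 were called higher in each genotype and 0 lower, against 23.9% of all tested genes higher in wild type and 22.5% in knockout cells. Of the 19, 7 passed the filter only through bleomycin libraries and so had to be higher. Among the other 12, 7 were called higher in each genotype, with median log2 fold changes of 0.58 (wild type) and 0.77 (knockout). Genes with 0 counts include LOR (loricrin, a major envelope protein of skin) and SPRR1B, SPRR2A and SPRR2D. Of its 47 genes other than S100 genes 10 could be tested and 20 had 0 counts, against 9 of 17 S100 genes tested. Between genotypes 0 were called.

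**Figure D3:**
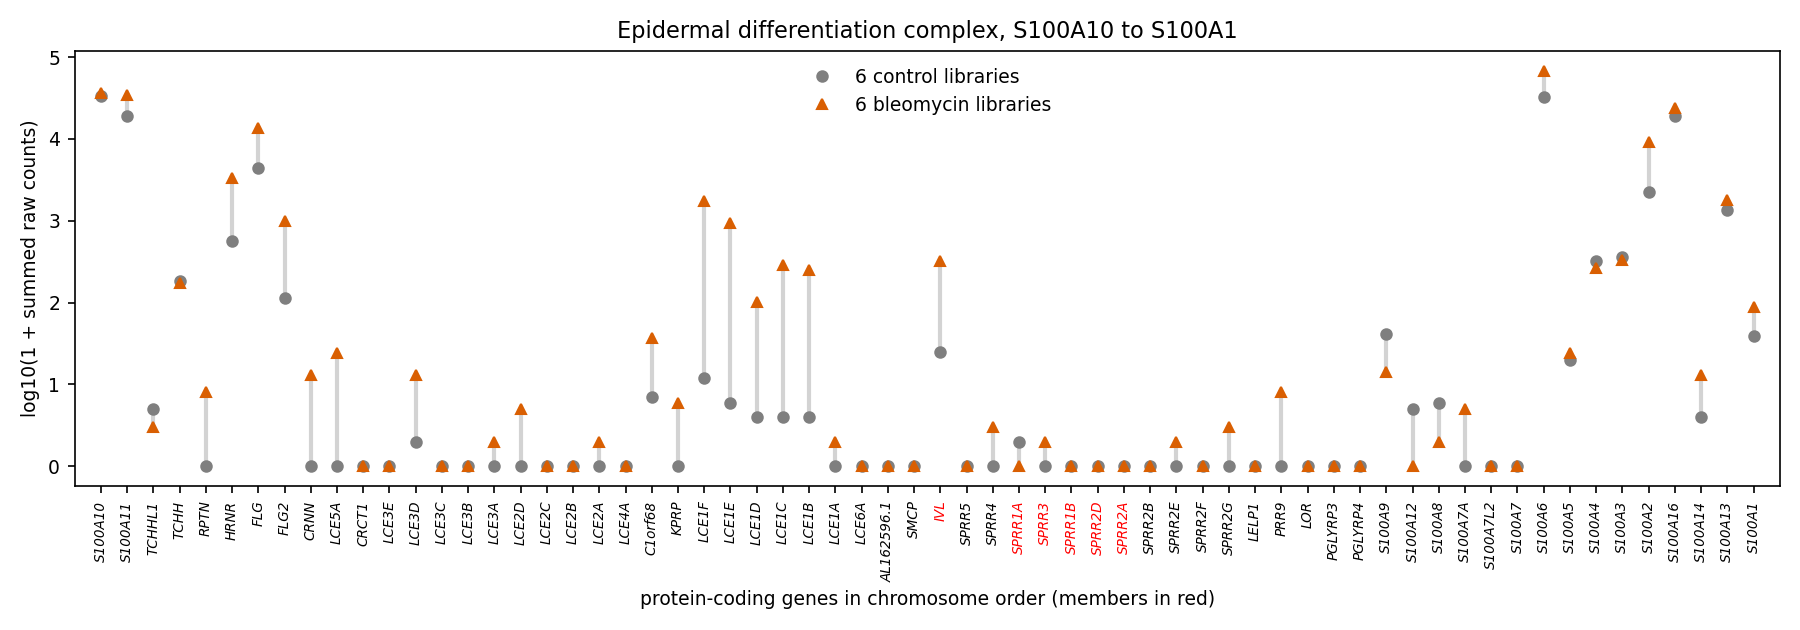
Summed raw counts of the protein-coding genes of the epidermal differentiation complex in their order on chromosome 1, as log10(1 + counts), with circles for the 6 control libraries and triangles for the 6 bleomycin libraries of both genotypes together. IVL, FLG2 and LCE1B to LCE1F lie higher with bleomycin, while the SPRR genes beside IVL lie at or near 0 in both.

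Other genes of the programme were taken from 6 lists, chosen with earlier results of these data known. List counts therefore describe the listed genes and do not test the programme. Of all tested genes, 23.9% were called higher and 19.6% lower in wild type cells, and 22.5% and 20.7% in knockout cells. The all-gene medians were 0.02 and 0.00. Of 36 other envelope precursors and plakins 13 were tested, and 8 rose and 2 fell in each genotype. Of the 8, LCE1B to LCE1F (5 genes) passed the filter only through bleomycin libraries and so had to be higher. Of the other 8 tested, 3 rose and 2 fell in each genotype, with median log2 fold changes of -0.05 in wild type and 0.29 in knockout cells. LCE1F, a late cornified envelope protein, went from 3 to 1143 counts in wild type cells (ratio 413, 95% interval 141 to 2005) and from 8 to 613 in knockout cells (73.7, 37.2 to 171). LCE1E, with 0 counts in wild type controls, reached 559 with bleomycin, which is at least 202-fold above the limit of 3 counts over the group. In knockout cells it went from 5 to 372 counts (ratio 71.5, 30.4 to 222). The LCE1 genes share sequence, with 5.19% of the 50-base stretches of LCE1F and 11.2% of those of LCE1E found in another gene, so their separate values are uncertain. FLG2, a filaggrin-like matrix protein, rose 9.32-fold in wild type cells from 0.886 ± 0.312 CPM (3.22 on the log2 scale, SE 0.25, adjusted p = 2.83e-07 in edgeR) and 8.37-fold in knockout cells. The genes of this list that fell were EVPL and PPL, the plakins envoplakin and periplakin that line the membrane at the start of envelope assembly. PPL went from 46.0 ± 9.91 to 15.9 ± 2.73 CPM (2.90-fold lower) in wild type cells and was 3.62-fold lower in knockout cells, and EVPL was 1.93-fold and 2.02-fold lower.

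Of 14 enzymes of cornification 7 were tested, and 5 rose and 0 fell in each genotype. TGM5, ALOX12B and ABCA12 passed the filter only through bleomycin libraries, and SULT2B1, a sulfotransferase that was not called, only through control libraries. Of the other 3, 2 rose, with medians of 1.01 and 0.60. ABCA12, the lipid transporter of lamellar granules, went from 13 to 1150 counts in wild type cells (ratio 95.9, 55.8 to 181) and from 13 to 772 in knockout cells (57.1, 33.2 to 108). ALOXE3, a lipoxygenase of the skin lipid barrier, rose 13.5-fold and 6.66-fold. TGM5, another transglutaminase, went from 4 to 100 counts (ratio 27.1, 10.3 to 101) and from 4 to 73 (17.5, 6.57 to 66.1). So TGM5 rose where TGM1 did not pass. In edgeR the wild type fold of TGM5 was 24.8, and 57.5 without wild type control replicate 1, while that of ABCA12 was 93.4, and 149.7 without wild type control replicate 2. The ABCA12 fold in knockout cells was 55.6, and 90.6 without knockout control replicate 3. For LCE1F in wild type cells it was 365, and 669.5 without wild type control replicate 3, and for LCE1E in knockout cells 66.7, and 109.1 without knockout control replicate 2.

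Of 16 transcription factors of squamous differentiation 12 were tested. In wild type cells 7 rose and 2 fell, and in knockout cells 7 rose and 1 fell. TP63, GRHL3, OVOL1 and EHF passed the filter only through bleomycin libraries. Of the other 8, 3 rose in each genotype, and the medians were 0.24 and 0.08. Under alternatives the factors called higher numbered 5 to 8 in wild type and 4 to 7 in knockout cells. The factor CEBPB was called under 14 of 17 alternatives in wild type cells and 4 of 17 in knockout cells. TP63 was called under 12 of 16 and 9 of 16. PRDM1, a repressor active in granular keratinocytes, rose 19.7-fold in wild type cells from 0.722 ± 0.163 to 14.3 ± 0.992 CPM (4.30 on the log2 scale, SE 0.17, adjusted p = 5.32e-10 in edgeR) and 20.4-fold in knockout cells. GRHL3, a factor needed for the skin barrier, went from 8 to 974 counts (ratio 132, 66.7 to 306) and from 18 to 714 (38.1, 24.0 to 64.7). KLF4, another barrier factor, rose 5.25-fold and 3.25-fold. TFAP2A, a factor of early keratinocyte differentiation, was called lower in wild type cells, a call lost without control replicate 2 or 3 or bleomycin replicate 2 or 3.

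Of 14 suprabasal keratins and desmosomal genes 5 were tested and all 5 rose in each genotype. DSC3 reached the filter level in bleomycin libraries alone, and the medians of the other 4 were 1.03 and 1.05. DSG3 is among these 4, but its control counts were too few to pass the filter without the bleomycin libraries. It too had to be higher there, so these medians are not free of the filter. DSG3, a desmosomal cadherin of stratified epithelium, went from 5 to 1244 counts in wild type cells (ratio 269.6, 115 to 832) and from 16 to 990 in knockout cells (59.5, 36.5 to 105). Its edgeR fold in knockout cells was 57.9, and 122 without knockout control replicate 1. DSC3, its partner cadherin, went from 9 to 498 and from 5 to 345 counts (edgeR 61.5-fold in knockout cells, and 94.4-fold without knockout control replicate 3). PKP1, a plaque protein, rose 2.42-fold and 2.63-fold.

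The 6 paralogs of SFN in the 14-3-3 family went the other way: all 6 were tested, 5 fell and 0 rose in each genotype (medians -0.45 and -0.40). YWHAH fell 1.48-fold, YWHAZ 1.59-fold and YWHAE 1.65-fold in wild type cells, and 1.36-fold, 1.44-fold and 1.5-fold in knockout cells. SFN itself rose, as given above. Of 9 listed S100 genes of the complex 4 were tested; 2 rose in wild type cells and 3 in knockout cells, and 0 fell (medians 0.48 and 0.79). S100A2, a p53-regulated calcium-binding protein of basal cells, rose 5.06-fold from 17.8 ± 2.98 CPM in wild type and 3.39-fold in knockout cells. S100A11, an envelope-associated S100 protein, rose 1.62-fold in wild type cells (adjusted p = 0.0253, edgeR), a call that was lost without any one of the wild type control libraries or without wild type bleomycin replicate 3, and 2.10-fold in knockout cells. S100A16 rose 1.36-fold in knockout cells, a call lost without knockout bleomycin replicate 2 and when only the groups compared were fitted. Over the 6 lists 36 of 47 tested genes were called in each bleomycin comparison, against 43.5% and 43.2% of all genes. Of the 47, at least 13 passed the filter only through bleomycin libraries, and DSG3 is not counted in the 13. The lists were also chosen with earlier results known, so this count supports nothing about the programme. There were 0 calls among the 47 between genotypes or in the interaction.

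**Figure D4:**
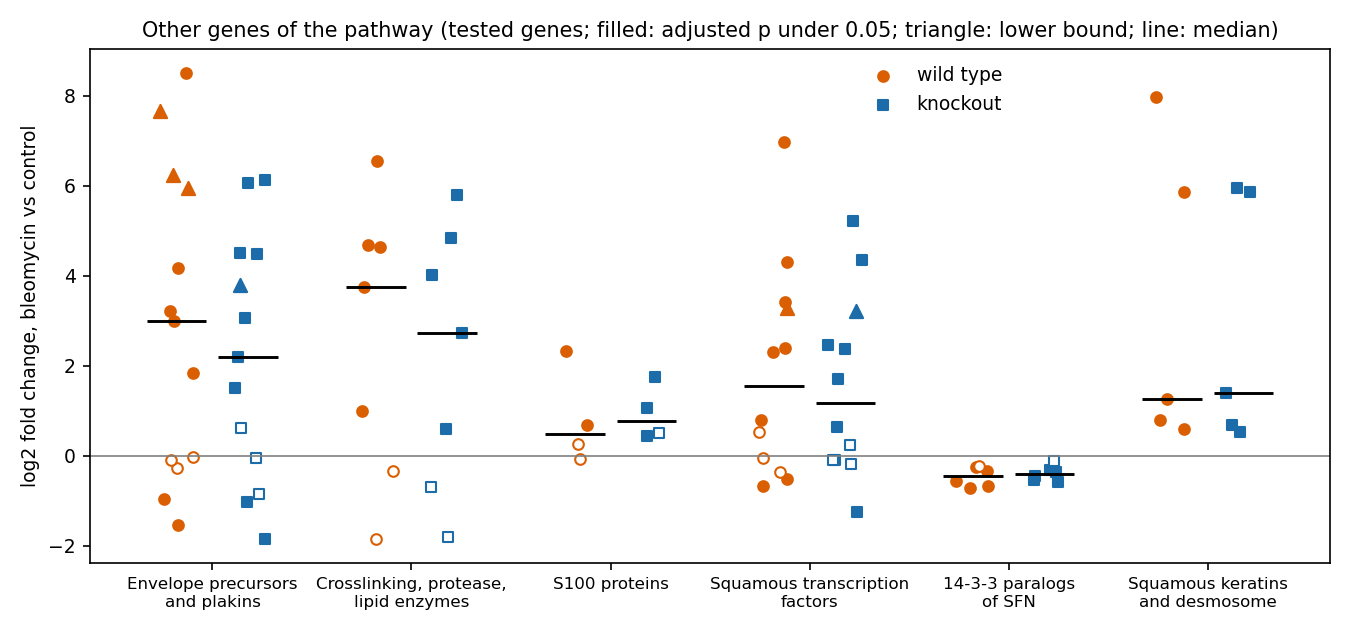
Log2 fold change with bleomycin for each tested gene of the 6 lists in wild type (circles) and knockout cells (squares), filled where the adjusted p is under 0.05, with a line at the median of all tested genes of a list, those that passed the filter only through bleomycin included, and triangles at the lower bound where control counts were 0. The 14-3-3 paralogs lie below 0, and most filled points of the other lists lie above it.

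Markers of other cells were read beside these values. General epithelial keratins were abundant (KRT8 at 672 CPM and KRT18 at 263 CPM in wild type control), while EPCAM at 1.48 CPM and CDH1 at 1.79 CPM were low, and the mesenchymal VIM at 965 CPM and FN1 at 1951 CPM were high. The basal cell keratins KRT5 and KRT14 were nearly absent, with 3 and 0 counts in wild type cells before and 19 and 3 after bleomycin, and 0 and 2 before and 8 and 2 after it in knockout cells. The summed level of the basal list (KRT5, KRT14, KRT15, TP63, NGFR and DLK2, 4 of 6 tested) was 11.8 to 12.1 CPM in untreated and 33.5 to 40.3 in treated wild type cells, and 11.1 to 23.4 in untreated and 39.8 to 44.2 in treated knockout cells. The basal sum was thus higher in the same libraries as CSTA, IVL and SFN. In knockout cells KRT15 went from 9 to 193 counts and TP63 from 4 to 23. Most of the basal sum in treated knockout cells therefore came from NGFR, DLK2 or both, not from the basal keratins. The secretory list (1 of 5 tested) was also higher, at 0.051 to 0.378 CPM against 3.10 to 5.16 in wild type and 0 to 0.373 against 3.53 to 5.26 in knockout cells, mostly MUC5AC, which had 2 counts before and 217 after bleomycin in wild type cells. The ciliated list (4 of 5 tested) was at 4.22 to 5.99 CPM against 7.53 to 8.21 in wild type and 3.44 to 5.04 against 7.18 to 7.72 in knockout cells, with FOXJ1 at 0 counts in wild type controls and 47 after bleomycin. The sum of the general epithelial list (KRT8, KRT18, KRT19, EPCAM and CDH1) was lower, at 876 to 1093 CPM against 589 to 725 in wild type and 968 to 1080 against 687 to 789 in knockout cells. Its 5 genes did not all fall: 1 was called higher and 2 lower in wild type cells, and 1 higher and 3 lower in knockout cells. The part of these markers in the results was not tested. The leukocyte list was lower after bleomycin (19.5 to 23.9 against 2.12 to 3.10 CPM in wild type cells), nearly all of it CD14, which fell from 1291 to 121 counts.

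The tested genes whose pattern over the 12 libraries was most like that of the tested members (highest Pearson r with the mean standardised log2 CPM of the 5, among 11615 protein-coding genes whose mean log2 CPM reached 1) were CACNB2 (r = 0.952), PLCB1 (0.946), SPON1 (0.928), DTX4 (0.923) and KLHL24 (0.918). The tested members did not share a single pattern. TGM1 correlated at -0.64 with CSTA, -0.64 with IVL and -0.59 with SFN, and CNFN at 0.14, 0.12 and 0.19 with the same genes. All these correlations are a description. The 12 libraries fall into control and bleomycin sets, which any gene with a treatment difference shares.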

How the data were processed

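The authors deposited raw counts per gene and FPKM values for the same 12 libraries, with a gene length column per the file headers. Per the submitters' processing notes, the tools were HISAT2 2.0.5 (an aligner) and featureCounts 1.5.0-p3 (a read counter). Genome build, use of strand and treatment of reads matching several genes are not given in the sources used here. The 58735 genes of the tables have the identifiers and positions of GENCODE 29 (GRCh38), and 0 rows named no gene. Gene names differed for 27 genes between the tables, so genes were joined by identifier.

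Counts were tested with edgeR 4.0.16 in R 4.3.3 (limma 3.58.1): filterByExpr (minimum count 10, here 0.544 CPM), TMM scaling, estimateDisp and robust glmQLFit, in one fit of the 12 libraries with 4 group means and 5 contrasts. Benjamini-Hochberg adjustment ran over 16702 genes, with calls at an adjusted p under 0.05. The test was checked on simulated data. CPM use TMM-scaled totals, and the SE is the log2 fold change over the square root of F. Count ratios of groups are scaled by library size and have 95% exact intervals. Alternatives were DESeq2 1.42.0, other size factors, no filter, a replicate block, only the groups compared and each library left out. All members are named. Of each list, the called genes with the 3 smallest adjusted p were named; others were chosen after their values were seen. The members and lists were chosen with earlier results of these data known. Promoters come from RefSeq (GRCh38.p14). CSTA, TGM1 and SPRR2D were not matched there. A result on a single gene is not reported here.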

Additional observations from a re-analysis of the deposited data

How the results depend on the processing

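Over 17 alternatives in wild type cells the count of members called with bleomycin was 3 throughout. In knockout cells it was 3 to 4, the fourth being TGM1. Of 415 values of members under alternatives 410 kept their side of the threshold, and 5, all of TGM1 in knockout cells, crossed it. The sign differed from the reported value in 16, 2 of them in the bleomycin comparisons, and 0 of the 16 were called. For the genotype comparisons and the interaction the count was 0 throughout. With the replicate number as a block the count was 3 in wild type and 4 in knockout cells (TGM1 -0.68, adjusted p = 0.0289), and 0 in the other comparisons. Deviations of same-numbered libraries correlated between -0.13 and 0.11, with 1 of 18 pairs over 0.1. Differently numbered libraries were not compared, so these values do not settle whether replicate numbers pair the libraries.

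Some list counts moved. Enzymes called lower numbered 0, but 1 (SULT2B1) with DESeq2 or no filter in both genotypes, 1 with only the groups compared in knockout cells, and 0 to 1 with a library left out. S100 genes called higher in wild type cells numbered 2, but 1 without the filter and 1 to 3 with a library left out. With a library left out, factors called lower in wild type cells numbered 0 to 2 and 14-3-3 genes called lower 3 to 6. With only the groups compared, 4 factors were called higher and 3 of the 14-3-3 genes lower in knockout cells. The cause was not tested. Of 1591 values of list genes 58 lost their call, 21 gained one and 0 reversed. Depth limits CSTA and IVL in control libraries and the SPRR genes throughout.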
